A study of Mus musculus with 14 samples.

Results

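Of the 23284 genes counted in the forelimb buds of mouse embryos, 10 were followed as transcripts of the p53 and Bcl2 death pathway: Trp53, Mdm2, Ccng1, Pmaip1, Bbc3, Bcl2l11, Bax, Bcl2, Bcl2l1 and Mcl1. They form a list of gene names, set with earlier results of these data known. All 10 passed the filter on low counts, which kept 12393 genes. Poly(A) RNA was sequenced from the pair of forelimb buds of single embryos in 4 groups. At 30 somites (E10.0) there were 3 wild-type and 4 Smad4Δ/Δc embryos, and at 35 somites (E10.5) again 3 and 4. Embryos of all groups carried the Prrx1-Cre transgene, which acts in limb bud mesenchyme. The wild types had both Smad4 alleles intact, and the mutants had 1 constitutive null allele and 1 allele inactivated by the recombinase, so that ectoderm and other cells outside the reach of Prrx1-Cre kept the latter allele. Comparing the genotypes asks which transcripts change when SMAD4, the shared effector of BMP and TGFβ signals, is removed from the mesenchyme.

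The p53 protein, encoded by Trp53, is a transcription factor that accumulates when DNA is damaged or cells are stressed, and its amount is set largely by breakdown of the protein and less by its transcript. Mdm2 encodes the ubiquitin ligase that marks p53 for breakdown and is itself a p53 target, as is Ccng1, which encodes cyclin G1. Cell death through mitochondria is decided among proteins of the Bcl2 family. The BH3-only proteins NOXA (Pmaip1), PUMA (Bbc3) and BIM (Bcl2l11) are the triggers, BAX opens the outer mitochondrial membrane, and BCL2, BCL-XL (Bcl2l1) and MCL1 hold BAX and the triggers in check. Programmed cell death in the limb is best known from the tissue between the digits, which forms later than the stages sampled. Much of this pathway is controlled in the proteins, which were not measured.

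Sequences that resemble the p53 response element, the paired half-sites to which p53 binds, are shown because they are the DNA feature by which p53 targets are recognized. RefSeq promoter windows of the GRCm38.p6 build, from 250 bases before to 50 bases after each start, were searched with the 20-base p53 consensus without a spacer, which reads the same on both strands. The C and G that frame the core of both half-sites had to match, and at most 3 mismatches were allowed. Among 31396 autosomal windows 1.4% held such a match, and 0.0701% held one with at most 1 mismatch. Of the 9 members searched, 3 held a match in the 14 windows listed for them. In the following sites, written on the strand of the gene, capitals mark the core of each half-site.
Ccng1: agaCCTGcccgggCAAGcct
Trp53: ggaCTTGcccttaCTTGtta
Bbc3: ctgCAAGccccgaCTTGtcc
The Ccng1 site (chr11:40755462-40755481, minus strand) had 1 mismatch and began 195 bases before the start. The Trp53 site (chr11:69580284-69580303, plus strand) and the Bbc3 site (chr7:16309486-16309505, plus strand) each had 3 mismatches. No match within 3 mismatches lay in the windows of the other 6 genes. Sites outside the windows, as in introns, or with a spacer would have been missed, so that these genes may still have response elements. Binding of p53 was not measured in these samples. Pmaip1 was not searched.

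Between 34066930 and 61691258 reads per embryo were counted on genes. Smad4 was lower in the mutants, with 39.8 ± 4.19 against 161 ± 8.43 CPM in the E10.0 wild types and 37.0 ± 3.43 against 166 ± 2.27 CPM in those of E10.5 (SD, n=4 and n=3), and no mutant embryo overlapped with a wild type. CPM are read counts scaled to the TMM-normalized library size, summed over the genes tested. The limb mesenchyme markers Prrx1, Tbx5, Hoxd9, Hoxd10, Lhx9, Meis1, Twist1 and Pdgfra were present in every group, with summed levels of 1604 to 2148 CPM. Of these 8, 3 were called lower in mutants at E10.0, where 6.61% of all genes were called. At E10.5, 1 was called higher and 2 lower, beside 3.73% of all genes. The 4 mutant embryos numbered 4 and 5 stood apart by their share of reads on Rn45s, the ribosomal RNA precursor, of 1.72% to 8.05% against 0.151% to 0.478% in the other 10. Nothing in the labels names these embryos as a batch. Calls of members that changed without them, and calls of named list genes that were lost, are given below. Fewer cells of a type and less RNA per cell cannot be told apart in whole buds. The genotype comparisons and the stage comparisons share groups of embryos, and their values are therefore given side by side.

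Of the 10 members, Pmaip1 was the 1 called in any comparison by the main tests. It rose from E10.0 to E10.5 in both genotypes and was higher in mutants at E10.5. Pmaip1 (chromosome 18, 66618258 to 66625204 of mm9, plus strand) encodes NOXA, a small BH3-only protein that binds MCL1 and promotes its loss. At E10.0, the wild-type embryos had 18.2, 8.67 and 17.6 CPM, and the mutants 29.6, 7.29, 16.7 and 24.3 CPM. The groups overlapped, and the lowest embryo of all 14 was a mutant. At E10.5, the wild types had 36.5, 49.0 and 52.4 CPM and the mutants 114, 104, 87.0 and 90.4 CPM. All mutants were above all wild types at E10.5, and every embryo at E10.5 was above every embryo at E10.0.

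**Figure D1:**
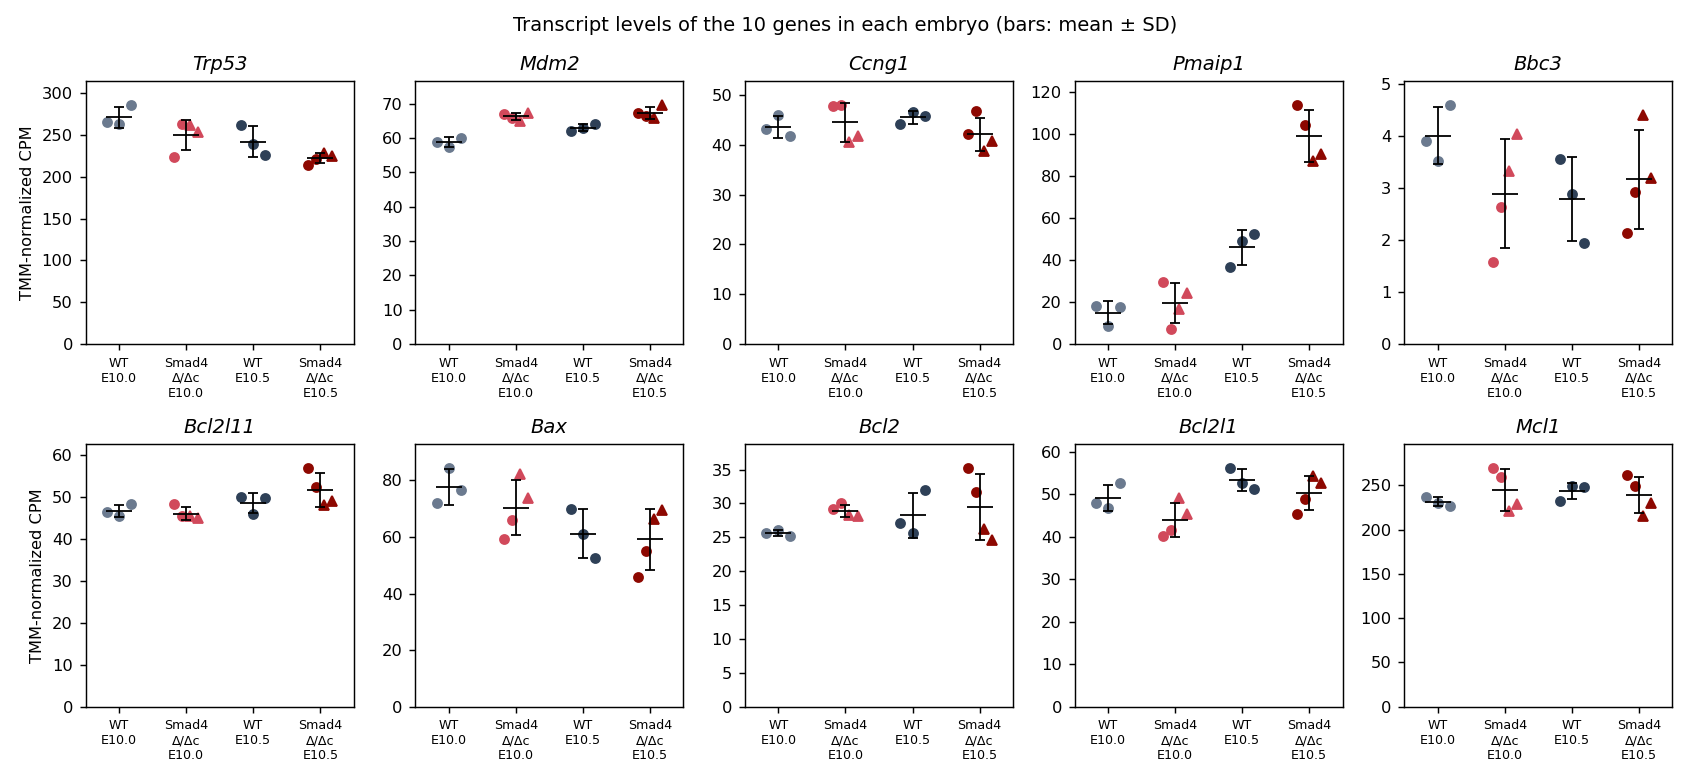
TMM-normalized CPM (vertical axes, from 0) of the 10 genes in each of the 14 embryos by group; points are embryos, triangles the mutant embryos numbered 4 and 5, and bars the mean ± SD. Pmaip1 rose from E10.0 to E10.5, from 14.8 to 46.0 CPM in wild type and from 19.5 to 98.8 CPM in mutants. None of the other 9 genes was called, and Bbc3 and Bax spread widely within groups.

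Pmaip1 rose with stage in both genotypes. It went from 14.8 ± 5.36 to 46.0 ± 8.36 CPM in wild type (SD, n=3), a log2 fold change of 1.63 ± 0.385 (SE) with an adjusted p of 6.32e-05. In mutants it went from 19.5 ± 9.68 to 98.8 ± 12.4 CPM (SD, n=4), a log2 fold change of 2.34 ± 0.456 (SE) with an adjusted p of 2.42e-13. Adjusted p-values are from the edgeR exact test with Benjamini-Hochberg adjustment over all 12393 genes, and calls needed both an adjusted p no higher than 0.1 and a change of 1.2-fold or more. Pmaip1 was the 1 of 10 members called in wild type, where 10.1% of all genes were called, and the 1 of 10 called in mutants, where 19.2% were. Both calls held in all 14 fits that left out 1 embryo and under every other setting tried.

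Between genotypes, Pmaip1 was 2.15-fold higher in mutants at E10.5, with a log2 fold change of 1.10 ± 0.183 (SE) and an adjusted p of 0.0182. It was again the 1 of 10 members called, against 3.73% of all genes. The call depended on the test. The adjusted p was 0.149 with the edgeR quasi-likelihood test, which made fewer false calls than the exact test on simulated data, and 0.126 with DESeq2, while the log2 fold change moved only between 1.10 and 1.11. It also depended on 1 wild-type embryo, since without replicate 1 at E10.5, the lowest wild type, the adjusted p was 0.205. In the other 13 fits that left out 1 embryo the call held, and without the mutants numbered 4 and 5 the log2 fold change was 1.25 (adjusted p = 0.0332). At E10.0 the log2 fold change was 0.39 ± 0.567 (SE, adjusted p = 0.549). Without mutant replicate 3, the embryo at 7.29 CPM, it was 0.67 and was called (adjusted p = 0.0639). The difference of the genotype effect between stages was 0.71 on the log2 scale and was not called (adjusted p = 0.950, quasi-likelihood test).

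Of the cell type marker lists read, those of hindlimb and of macrophages are shown because they ranked the 4 groups as Pmaip1 did. The hindlimb genes Pitx1 and Tbx4 together reached 1.53 to 4.33 CPM in wild types and 2.34 to 4.89 CPM in mutants at E10.0, and 6.78 to 8.62 and 12.4 to 16.2 CPM at E10.5. Of the 2, 1 was high enough to be tested, and it was called higher at E10.5 than at E10.0 in both genotypes and higher in mutants at E10.5. The 7 macrophage markers together reached 3.31 to 6.87 CPM in wild types and 7.57 to 9.98 CPM in mutants at E10.0, and 11.7 to 14.8 and 15.0 to 21.7 CPM at E10.5. Of the 4 macrophage markers tested, 3 were called higher with stage in each genotype, 2 were called higher in mutants at E10.0 and none at E10.5. No marker of either list was at 0 in a whole group. Markers of mesothelium and of ectoderm did not follow this order. Between genotypes, the median log2 fold change of the mesothelium markers was 2.38 at E10.0 and -1.42 at E10.5. With stage it was 0.97 in wild type and -2.67 in mutants. The medians of the ectoderm markers were negative in all 4 comparisons, from -0.29 to -0.19. The part of hindlimb cells and of macrophages in the Pmaip1 values was not tested.

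The genes most like Pmaip1 across the 14 embryos were Lpar1 (Pearson r = 0.987) and Tbx18 (r = 0.986), on the scale of log2(CPM + 1). Both were picked for this likeness, the embryos share 4 groups, and no test was made. Lpar1, which encodes a receptor for lysophosphatidic acid, had 222, 181 and 209 CPM in wild types and 228, 187, 207 and 240 CPM in mutants at E10.0. At E10.5 it had 249, 251 and 261 CPM in wild types and 312, 312, 301 and 301 CPM in mutants. Tbx18, a T-box transcription factor, had 64.7, 46.4 and 66.1 CPM in wild types and 78.7, 54.2, 61.3 and 77.0 CPM in mutants at E10.0. At E10.5 its wild types had 78.5, 91.0 and 99.1 CPM and its mutants 141, 132, 124 and 120 CPM. In all 3 genes, mutant replicate 3 was the lowest of the mutants at E10.0, wild-type replicate 2 was the lowest of the wild types at E10.0, and all mutants were above all wild types at E10.5.

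**Figure D2:**
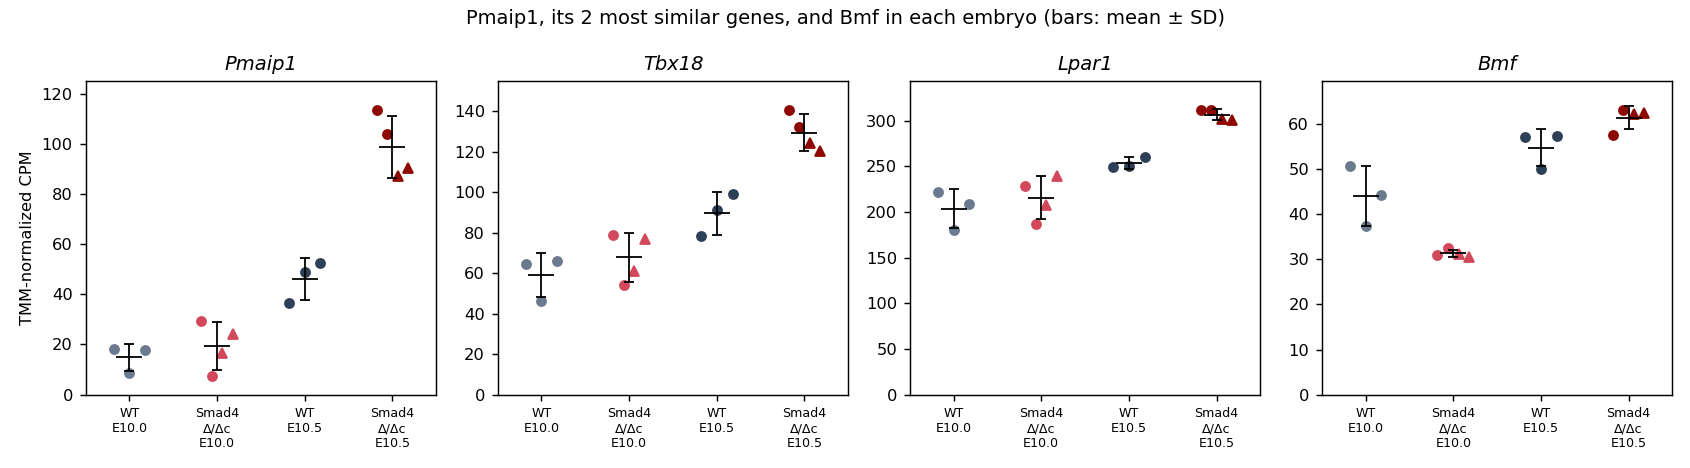
TMM-normalized CPM (vertical axes, from 0) of Pmaip1, its 2 most similar genes Tbx18 and Lpar1, and the BH3-only gene Bmf in each of the 14 embryos by group; triangles are the mutant embryos numbered 4 and 5, and bars the mean ± SD. Mutants at E10.5 were the highest group for all 4 genes, and Bmf was lowest in mutants at E10.0, at 30.5 to 32.5 CPM.

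None of the other 9 members was called in any of the 4 comparisons or in the interaction by the main tests. At E10.0, where 6.61% of all genes were called between genotypes, the edgeR exact test called 0 of the 10 members, 1 had an unadjusted p under 0.05, and the quasi-likelihood test and DESeq2 also called 0. For the interaction, which was called in 0.186% of all genes, 0 members were called and 0 had an unadjusted p under 0.05, and DESeq2 called 0. The median log2 fold change of the 10 members between genotypes was 0.0061 at E10.0 (all genes -0.017) and 0.020 at E10.5 (all genes -0.010). With stage it was 0.067 in wild type (all genes -0.0086) and 0.027 in mutants (all genes -0.0050).

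**Figure D3:**
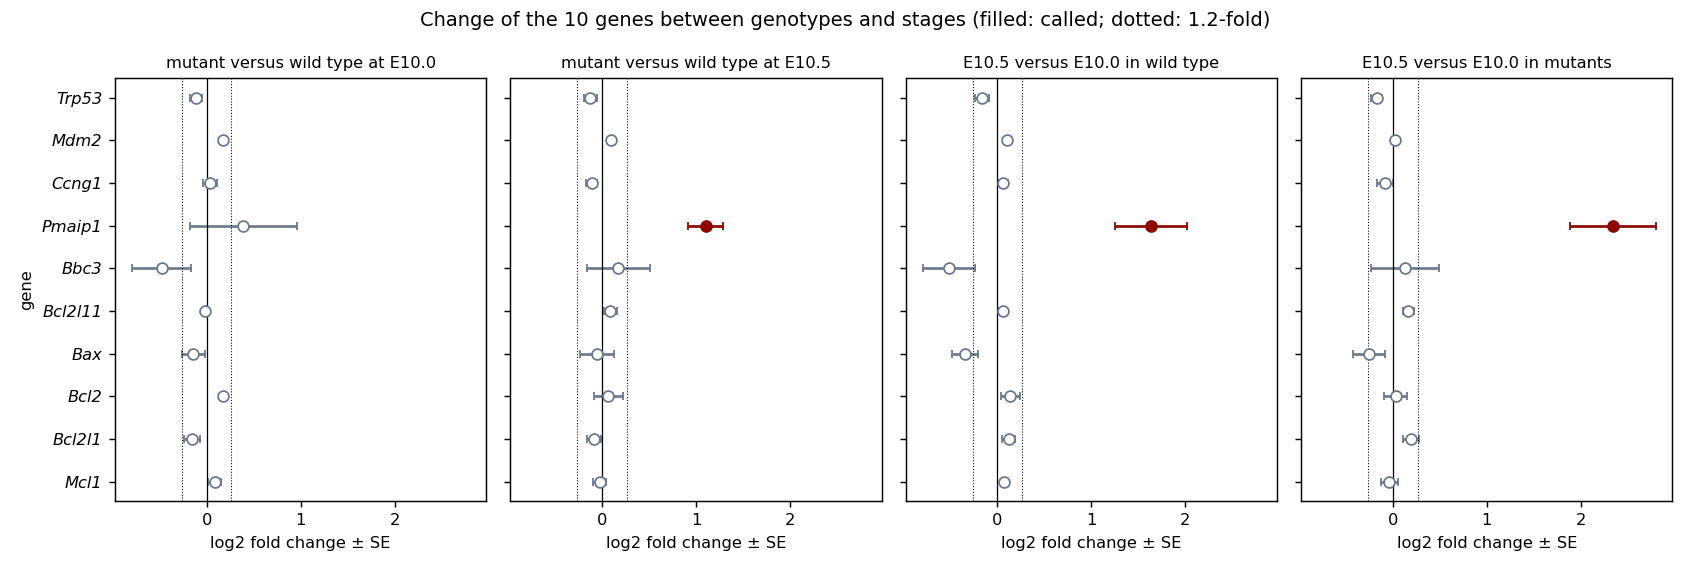
Log2 fold change ± SE (horizontal axis) of the 10 genes in the 4 comparisons; filled points were called, open points were not, and dotted lines mark a 1.2-fold change. Pmaip1 was called in 3 of the 4 comparisons, and every open point other than Pmaip1, Bbc3 and Bax lay between the dotted lines.

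Mdm2 (chromosome 10, 117125944 to 117147814 of mm9, minus strand) was slightly higher in every mutant than in every wild type at both stages. At E10.0 the wild types had 58.9, 57.3 and 60.2 CPM and the mutants 67.1, 65.8, 65.1 and 67.3 CPM. At E10.5 the wild types had 62.1, 62.9 and 64.3 CPM and the mutants 67.5, 66.5, 65.9 and 69.7 CPM. The embryos thus did not overlap by genotype at either stage, and the mutants numbered 4 and 5 did not stand apart from the other mutants. The log2 fold changes were 0.17 ± 0.0234 (SE, adjusted p = 0.183) at E10.0 and 0.095 ± 0.0229 (SE, adjusted p = 0.806) at E10.5. The adjusted p at E10.0 was 0.0758 with the quasi-likelihood test and 0.00117 with DESeq2, and the fold change stayed under 1.2 with both, so that Mdm2 was not called. With stage the log2 fold change was 0.10 ± 0.0250 in wild type (SE, adjusted p = 0.498), where all embryos at E10.5 were higher, and 0.022 ± 0.0212 in mutants (SE, adjusted p = 0.881).

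Trp53 (chromosome 11, 69393861 to 69405375 of mm9, plus strand) had 266, 263 and 286 CPM in wild types and 224, 263, 262 and 254 CPM in mutants at E10.0. The highest mutant lay just under the lowest wild type. At E10.5 it had 262, 240 and 226 CPM in wild types and 214, 222, 228 and 225 CPM in mutants, which overlapped. The log2 fold changes between genotypes were -0.12 ± 0.0659 (SE, adjusted p = 0.506) and -0.12 ± 0.0654 (SE, adjusted p = 0.725). With stage Trp53 gave -0.16 in wild type (adjusted p = 0.285) and -0.17 in mutants (adjusted p = 0.115). A pseudogene, Trp53-ps on chromosome 17, is annotated, and reads that map to both places were not counted.

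Ccng1, which had the closest match to the p53 consensus among the members searched, stayed within 38.9 to 48.0 CPM over all 14 embryos. Its mean was 43.6 ± 2.22 and 44.6 ± 3.92 CPM at E10.0 and 45.5 ± 1.24 and 42.1 ± 3.35 CPM at E10.5 in wild type and mutants (SD, n=3 and n=4). The 4 log2 fold changes lay between -0.11 and 0.061, with adjusted p-values from 0.586 to 0.911. Ccng1 was lower in mutants 4 and 5 than in the other mutants of either stage, at 41.2 against 47.9 CPM at E10.0 and 39.8 against 44.4 CPM at E10.5.

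Groups did not overlap for 3 of the 10 members between genotypes at E10.0, with Mdm2 and Bcl2 higher and Trp53 lower in mutants, where 17.8% of all genes did not overlap. At E10.5 they were 2 of 10, Mdm2 and Pmaip1, beside 13% of all genes. With stage they were 4 of 10 in wild type, with Pmaip1 and Mdm2 higher and Trp53 and Bax lower at E10.5, beside 37% of all genes. In mutants Pmaip1 was the 1 of 10, beside 20% of all genes.

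The BH3-only gene Bbc3, which encodes PUMA, was the least abundant member, with 89 to 214 reads per embryo. At E10.0 it had 3.91, 3.52 and 4.60 CPM in wild types and 1.57, 2.63, 3.33 and 4.03 CPM in mutants. At E10.5 it had 3.56, 2.89 and 1.95 CPM in wild types and 2.13, 2.93, 4.42 and 3.19 CPM in mutants. The groups overlapped at both stages. The log2 fold change between genotypes was -0.48 ± 0.314 (SE, adjusted p = 0.380) at E10.0 and 0.17 ± 0.334 (SE, adjusted p = 0.949) at E10.5. Without the mutants numbered 4 and 5, in which Bbc3 was higher than in the other mutants of both stages, it was -0.91 at E10.0 and called (adjusted p = 0.0224), and -0.13 at E10.5 (adjusted p = 0.893). With stage Bbc3 gave -0.52 ± 0.278 in wild type (SE, adjusted p = 0.323) and 0.13 ± 0.364 in mutants (SE, adjusted p = 0.809), and the groups overlapped in both genotypes.

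Bcl2l11, which encodes BIM, varied little, between 44.9 and 57.0 CPM in all 14 embryos. Its log2 fold changes between genotypes were -0.020 ± 0.0351 (SE, adjusted p = 0.938) at E10.0 and 0.089 ± 0.0686 (SE, adjusted p = 0.882) at E10.5. With stage they were 0.057 in wild type (adjusted p = 0.787) and 0.17 in mutants (adjusted p = 0.146). The 2 highest embryos, at 57.0 and 52.4 CPM, were mutant replicates 1 and 2 at E10.5.

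Bax (chromosome 7, 52717065 to 52722268 of mm9, minus strand), the pore-forming executioner, had its highest mean level in wild type at E10.0. The values at E10.0 were 72.1, 84.5 and 76.6 CPM in wild types and 59.4, 66.1, 82.1 and 73.8 CPM in mutants. At E10.5 it had 70.1, 60.9 and 52.6 CPM in wild types and 45.9, 55.0, 66.3 and 69.4 CPM in mutants. All wild types at E10.5 were below all wild types at E10.0, while the mutants of the 2 stages overlapped. The log2 fold change with stage was -0.35 ± 0.137 in wild type (SE, adjusted p = 0.136) and -0.25 ± 0.170 in mutants (SE, adjusted p = 0.166), and neither was called. Between genotypes it was -0.14 ± 0.121 at E10.0 (SE, adjusted p = 0.632) and -0.050 ± 0.182 at E10.5 (SE, adjusted p = 0.977).

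The Bax result turned on which embryos entered. Without the mutants numbered 4 and 5, Bax was called lower in mutants at E10.0 (log2 fold change -0.29, adjusted p = 0.0803) and lower with stage in wild type (-0.33, adjusted p = 0.0205) and in mutants (-0.31, adjusted p = 0.0949). With only the groups compared in the fit, the stage difference in wild type was also called (-0.34, adjusted p = 0.0122). The fits without wild-type replicate 1 or mutant replicate 1 at E10.5 called it in wild type, and those without mutant replicate 1 at E10.0 or mutant replicate 5 at E10.5 called it in mutants, with adjusted p-values down to 0.0680 and 0.0589.

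Of the guardians, Bcl2 (chromosome 1, 108434755 to 108610851 of mm9, minus strand) had 25.7, 26.2 and 25.2 CPM in wild types and 29.2, 30.1, 28.2 and 28.1 CPM in mutants at E10.0. All mutants were higher, by a log2 fold change of 0.17 ± 0.0270 (SE, adjusted p = 0.483). At E10.5 the wild types had 27.1, 25.6 and 32.0 CPM and the mutants 35.3, 31.7, 26.3 and 24.7 CPM, and the groups overlapped (log2 fold change 0.065 ± 0.154, SE, adjusted p = 0.960). The stage difference of Bcl2 was 0.14 in wild type (adjusted p = 0.584) and 0.031 in mutants (adjusted p = 0.903) on the log2 scale. The exons of Bcl2 overlap a gene on the opposite strand, D630008O14Rik, and reads of the 2 could not be told apart because strand was not recorded.

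Bcl2l1, which encodes BCL-XL, had 49.2 ± 3.16 CPM in wild types and 44.0 ± 4.03 CPM in mutants at E10.0, and 53.4 ± 2.59 and 50.3 ± 4.00 CPM at E10.5 (SD, n=3 and n=4). The log2 fold changes between genotypes were -0.16 ± 0.0840 (SE, adjusted p = 0.386) and -0.087 ± 0.0705 (SE, adjusted p = 0.900). With stage they were 0.12 in wild type (adjusted p = 0.543) and 0.19 in mutants (adjusted p = 0.124). Mcl1, the partner of NOXA, had 231 ± 5.23 and 245 ± 23.7 CPM at E10.0 and 243 ± 9.30 and 239 ± 20.5 CPM at E10.5 in wild type and mutants (SD, n=3 and n=4). Its 4 log2 fold changes lay between -0.036 and 0.083, with adjusted p-values from 0.706 to 0.985. Mcl1 was called in none of the 3 comparisons in which Pmaip1 was.

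The ratio of Bax to Bcl2 transcripts, formed from CPM per kilobase of exon in each embryo, was 15.1, 17.4 and 16.3 in wild type at E10.0. It was 10.9, 11.8, 15.6 and 14.1 in mutants at E10.0, 13.9, 12.8 and 8.81 in wild type at E10.5, and 6.98, 9.32, 13.6 and 15.1 in mutants at E10.5. Within the mutants of each stage, the embryos numbered 4 and 5 had the highest ratios. The ratio is a description, for which no test was made.

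**Figure D4:**
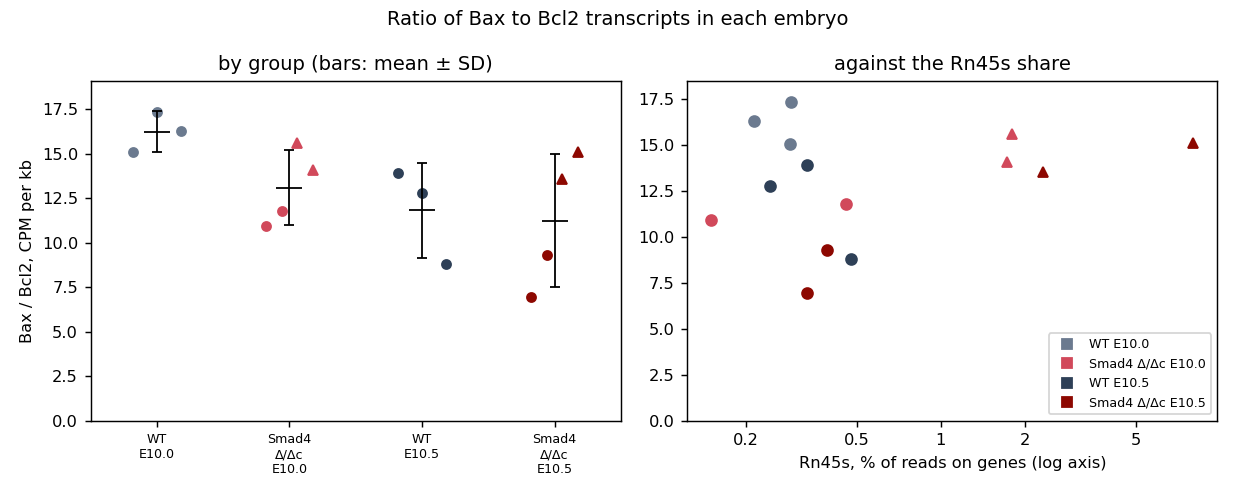
Ratio of Bax to Bcl2 (CPM per kilobase, vertical axes from 0) in each of the 14 embryos, by group with mean ± SD (left) and against the share of reads on Rn45s in percent, on a log axis (right); triangles are the mutant embryos numbered 4 and 5. These 4 embryos, with 1.72% to 8.05% of reads on Rn45s, lay at ratios of 13.6 to 15.6, above the other mutants of their stage, and the ratios of the other 10 embryos spread from 6.98 to 17.4 at shares of 0.151% to 0.478%.

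In the same 4 embryos other members also differed from the remaining mutants of their stage. Bbc3, Bax and Bcl2l1 were higher and Ccng1, Bcl2 and Mcl1 lower in replicates 4 and 5 at both stages. These are 6 of the 10 members, and 36% of all genes were separated in the same direction at both stages. Mcl1, for example, averaged 225 against 265 CPM at E10.0 and 223 against 255 CPM at E10.5, and Bcl2l1 47.2 against 40.9 CPM and 53.5 against 47.1 CPM. Without the mutants numbered 4 and 5, the log2 fold change between genotypes at E10.0 was 0.21 for Mcl1 (adjusted p = 0.0506), -0.25 for Bcl2l1 (adjusted p = 0.0566), 0.15 for Ccng1 (adjusted p = 0.241) and 0.021 for Bcl2l11 (adjusted p = 0.904), all under 1.2-fold and not called. At E10.5 it was 0.26 for Bcl2 (adjusted p = 0.248), 0.18 for Bcl2l11 (adjusted p = 0.333), -0.17 for Bcl2l1 (adjusted p = 0.404), -0.27 for Bax (adjusted p = 0.258), -0.026 for Ccng1 (adjusted p = 0.940) and 0.079 for Mcl1 (adjusted p = 0.690). The stage difference in mutants was then 0.18 for Bcl2 (adjusted p = 0.359) and 0.27 for Bbc3 (adjusted p = 0.651). Trp53 moved by less than 1.5 times in each of the 4 comparisons. A measure of gene length also varied between embryos. The median deviation of the shortest 10% of genes (up to 1564 bases of exon) from their mean over embryos, less that of the longest 10% (from 8333 bases), ranged on the log2 scale from -0.27 in mutant replicate 1 at E10.5 to 0.19 in wild-type replicate 3 at E10.0. The embryo at -0.27 had the lowest Bax and the highest Bcl2 of all 14, and these are the shortest and the second longest of the members, with 1339 and 7191 bases of exon. The part of the Rn45s share and of gene length in these values was not tested.

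Levels per kilobase of exon allow the members to be ordered among themselves. In wild type at E10.0, Trp53 (67.2 ± 3.14 CPM per kilobase, SD, n=3), Mcl1 (66.4 ± 1.50) and Bax (58.1 ± 4.71) were the most abundant. Ccng1 (12.4 ± 0.631), Mdm2 (11.6 ± 0.283) and Bcl2l1 (10.4 ± 0.668) came next. They were followed by Bcl2l11 (5.81 ± 0.184), Pmaip1 (5.61 ± 2.03), Bcl2 (3.57 ± 0.0629) and Bbc3 (2.0 ± 0.273). The ranges of mean ± SD overlapped between Trp53 and Mcl1, between Ccng1 and Mdm2, and between Pmaip1 and both of its neighbours, and not between the other neighbours in this order. Pmaip1 moved furthest in this order, from rank 8 in wild type and rank 7 in mutants at E10.0 to rank 4 in both genotypes at E10.5, where it reached 17.4 ± 3.16 and 37.3 ± 4.67 CPM per kilobase. Trp53 and Mcl1, and Ccng1 and Mdm2, also exchanged places between groups. With the length of the longest transcript in place of the union of exons, the levels of Trp53, Mdm2, Bbc3, Bcl2l11, Bax and Bcl2l1 were higher, and Pmaip1 was at rank 6 in wild type at E10.5.

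**Figure D5:**
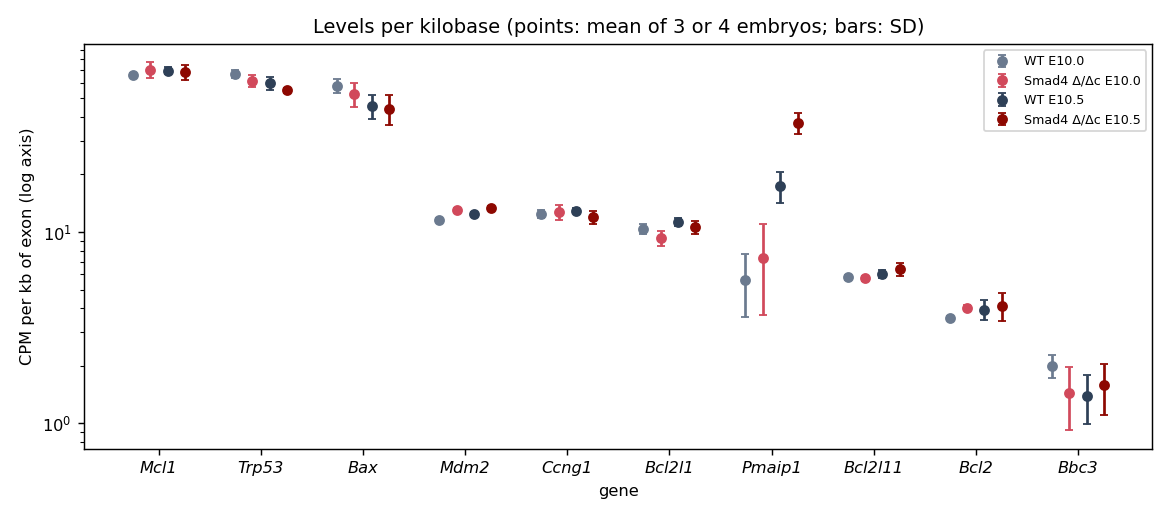
CPM per kilobase of exon (log axis) of the 10 genes in the 4 groups; points are means of 3 or 4 embryos and bars the SD. Mcl1, Trp53 and Bax lay at 44.2 to 70.3 in all groups, Bcl2 and Bbc3 at 1.39 to 4.10, and Pmaip1 spread from 5.61 to 37.3.

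The p53 pathway beyond the members was read from lists of regulators and of target genes. Among the regulators, 24 of 25 were tested, and 3 were called at E10.0, all higher in mutants, which was 12.5% of the list beside 6.61% of all genes. They were Hipk2, a kinase that acts on p53 (50.8 ± 5.20 and 66.1 ± 9.19 CPM, SD, log2 fold change 0.38, adjusted p = 0.0642), the acetyltransferase Ep300 (130 ± 15.3 and 164 ± 16.1 CPM, 0.33, adjusted p = 0.0688) and the damage kinase Atm (78.1 ± 18.1 and 105 ± 7.98 CPM, 0.42, adjusted p = 0.0776). The quasi-likelihood test called 0 of the regulators at E10.0. Without the mutants numbered 4 and 5 Hipk2 and Ep300 were lost, and Hipk2 was also lost with the replicate block. In fits that left out 1 embryo of E10.0, Atm and Ep300 were lost without wild-type replicate 1 or 3 or mutant replicate 3 or 5, and Atm also without mutant replicate 1. Hipk2 was lost without wild-type replicate 2 or 3 or mutant replicate 4 or 5, and the adjusted p-values of the 3 genes reached 0.547, 0.482 and 0.429. None was called at E10.5 or with stage in wild type. In mutants 1 fell with stage, 4.17% of the list beside 19.2% of all genes. It was Trp63, the p53 relative of epithelia (53.6 ± 11.1 to 41.3 ± 6.49 CPM, SD, n=4, log2 fold change -0.38, adjusted p = 0.0436), and its adjusted p was 0.170 with the replicate block. It was also lost without mutant replicate 1 or 3 of E10.0 or 1 or 4 of E10.5, where the adjusted p reached 0.219. Trp63 is also among the 8 ectoderm markers, whose summed level was 199 to 289 CPM in mutants at E10.0 and 164 to 233 CPM at E10.5. The part of ectoderm in this value was not tested.

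Of 33 genes listed as p53 targets other than the members, 29 were tested, and different genes were called at the 2 stages between genotypes. The list includes Trp53inp2, which is not established as a p53 target, and its counts are given with this gene. At E10.0, 2 were called, both lower in mutants, 6.9% of the list beside 6.61% of all genes. They were Trp53inp2, an autophagy factor (37.9 ± 3.77 and 29.8 ± 2.60 CPM, SD, log2 fold change -0.35, adjusted p = 0.0131), and Lrdd, which encodes the death-domain protein PIDD (25.0 ± 3.88 and 19.1 ± 2.99 CPM, -0.40, adjusted p = 0.0739). At E10.5, 2 were called, both higher in mutants, 6.9% beside 3.73%. They were the stress gene Gadd45a (6.92 ± 0.854 and 9.13 ± 0.424 CPM, 0.40, adjusted p = 0.0549) and the antiproliferative gene Btg2 (13.5 ± 0.388 and 16.9 ± 0.698 CPM, 0.32, adjusted p = 0.0826). The call of Trp53inp2 was lost without wild-type replicate 1 or 3 at E10.0 (adjusted p up to 0.248). Lrdd was lost without wild-type replicate 2 or 3 or mutant replicate 1 or 3 of E10.0, and without mutant replicate 2 of E10.5 (up to 0.576). Gadd45a was lost without wild-type replicate 1 or 2 or mutant replicate 2, 4 or 5 of E10.5 (up to 0.394), and Btg2 without any 1 of the embryos of E10.5 or wild-type replicate 1 or 2 of E10.0 (up to 0.329). Lrdd was also lost with the quasi-likelihood test, without the low-count filter, with only the groups compared in the fit, and with Rn45s left out of library sizes. Gadd45a was also lost without the mutants numbered 4 and 5 and with the replicate block, and Btg2 without the low-count filter and with the block. No gene of this list was called for the interaction.

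More of the genes listed as p53 targets, Trp53inp2 among them, moved with stage. In wild type 3 rose and 2 fell, 17.2% of the list beside 10.1% of all genes, and in mutants 6 rose and 3 fell, 31% beside 19.2%. Trp53inp1, a p53 cofactor, rose from 34.1 ± 3.30 to 52.1 ± 6.73 CPM in wild type (SD, n=3, log2 fold change 0.61, adjusted p = 0.0016) and from 27.5 ± 4.23 to 55.6 ± 9.74 CPM in mutants (SD, n=4, 1.02, adjusted p = 6.78e-13). Btg2 rose from 9.77 ± 0.403 to 13.5 ± 0.388 CPM (0.46, adjusted p = 0.00279) and from 9.20 ± 0.748 to 16.9 ± 0.698 CPM (0.87, adjusted p = 1.99e-15). In mutants Trp53inp2 rose too (29.8 ± 2.60 to 43.0 ± 1.89 CPM, 0.53, adjusted p = 1.70e-07). The exonuclease gene Aen fell in wild type (70.9 ± 6.41 to 53.3 ± 1.12 CPM, -0.41, adjusted p = 0.00523), and this call was lost without wild-type replicate 2 at E10.0 (adjusted p = 0.120). The median log2 fold change of the list stayed near 0, at 0.017 in wild type and 0.042 in mutants.

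Among the other Bcl2 family genes, 12 of 21 were tested, and 3 were called at E10.0, all lower in mutants, 25% of the list beside 6.61% of all genes. The BH3-only gene Bmf had 50.6, 37.3 and 44.2 CPM in wild types and 30.9, 32.5, 31.2 and 30.5 CPM in mutants at E10.0, where all mutants were lower (log2 fold change -0.49, adjusted p = 1.01e-04). At E10.5 it had 57.1, 49.9 and 57.2 CPM in wild types and 57.6, 63.1, 62.1 and 62.4 CPM in mutants, and was not called. Bmf rose with stage in mutants, from 31.3 ± 0.83 to 61.3 ± 2.53 CPM (SD, n=4, log2 fold change 0.97, adjusted p = 1.51e-22), and in wild type by 0.31 (adjusted p = 0.0464), where the groups overlapped. The latter call was lost without wild-type replicate 2 or 3 of E10.0 or 1 or 3 of E10.5 (adjusted p up to 0.410). Bcl2l12 (15.7 ± 1.53 and 10.5 ± 2.61 CPM, -0.58, adjusted p = 0.0242) and the BH3-only gene Bad (13.4 ± 0.697 and 10.1 ± 1.08 CPM, -0.41, adjusted p = 0.0568) were the others that were lower in mutants at E10.0. The call of Bcl2l12 was lost without wild-type replicate 3 or mutant replicate 1 (adjusted p up to 0.280), and that of Bad without wild-type replicate 2 or 3 or mutant replicate 1 or 5 (up to 0.368). Bad was also lost with the replicate block (adjusted p = 0.103). None of the list was called at E10.5 between genotypes, and Bcl2l12 also fell with stage in wild type (15.7 ± 1.53 to 10.9 ± 1.05 CPM, -0.53, adjusted p = 0.0545), which was lost without replicate 2 or 3 of either stage (up to 0.344). The stage call of Bcl2l12 was also lost with the quasi-likelihood test (adjusted p = 0.103).

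Of the caspases, the apoptosome and the inhibitors of apoptosis, 18 of 22 were tested. At E10.0 the large inhibitor of apoptosis Birc6 was the 1 called, 5.56% of the list beside 6.61% of all genes (155 ± 55.2 and 234 ± 24.5 CPM, SD, 0.60, adjusted p = 0.0670), and it was not called by the quasi-likelihood test or DESeq2. It was also lost without wild-type replicate 1 or 3 or mutant replicate 3 or 5 (adjusted p up to 0.520). With stage 0 rose and 2 fell in wild type, 11.1% of the list beside 10.1% of all genes, and 3 rose and 3 fell in mutants, 33.3% beside 19.2%. The mitochondrial protease gene Htra2 fell in both, from 25.0 ± 1.96 to 18.3 ± 0.242 CPM in wild type (-0.45, adjusted p = 0.00615) and from 22.1 ± 2.27 to 16.0 ± 1.83 CPM in mutants (-0.47, adjusted p = 2.33e-04). Dffa, which encodes the inhibitor of the caspase-activated DNase, fell in wild type (33.3 ± 0.666 to 27.7 ± 1.15 CPM, -0.27, adjusted p = 0.0734), a call lost without any 1 of the 6 wild types, mutant replicate 1 of either stage or mutant replicate 2 of E10.5 (adjusted p up to 0.402). In mutants Cycs, which encodes cytochrome c, fell (293 ± 25.6 to 238 ± 8.43 CPM, -0.30, adjusted p = 0.00307), and by less than 1.2-fold without mutant replicate 1 at E10.0 (adjusted p up to 0.0181).

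Of 16 mitochondrial and turnover partners of Bcl2 proteins, 14 were tested. The endoplasmic reticulum calcium channel gene Itpr1 was called higher in mutants at E10.0 (42.6 ± 10.7 and 56.7 ± 4.39 CPM, SD, 0.41, adjusted p = 0.0760), a call lost without wild-type replicate 1 or 3 or mutant replicate 4 or 5 (up to 0.538), and lower with stage in mutants (56.7 ± 4.39 to 40.7 ± 6.19 CPM, -0.48, adjusted p = 0.00343). The stage call had an adjusted p of 0.112 with the replicate block and 0.238 without the mutants numbered 4 and 5. The genotype call at E10.0 was also lost without these mutants and with the quasi-likelihood test. None of the list was called between genotypes at E10.5.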

How the data were processed

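RNA-seq libraries of 14 embryos were used, each made from both forelimb buds of 1 embryo and sequenced as single-end reads. The authors aligned the reads to mm9 with TopHat2 2.0.13, kept uniquely mapped reads, counted them per gene symbol with HTSeq regardless of strand and deposited raw counts. Reads outside genes (6.18% to 9.86%), ambiguous reads and reads on genes that were not tested were left out of library sizes. Genes had to lie on an autosome, which 1041 symbols did not, and to reach 1 CPM in 3 or more embryos, which left 12393 for testing. edgeR 4.0.16 (R 4.3.3) shrank the dispersion of each gene with 10 prior degrees of freedom, using every library after TMM normalization. Pairs of groups were compared with its exact test, as in the study's methods, and the interaction of stage and genotype with its quasi-likelihood test, all with Benjamini-Hochberg adjustment. Standard errors came from replicate variances of log2 CPM, without a pseudocount. The fits were tested on simulated counts, in which the exact test made more false calls than its threshold allows and the quasi-likelihood test stayed close to it. Alternatives were the quasi-likelihood test, DESeq2 1.42.0, other scalings and filters, a replicate block, and fits without single embryos or without the mutants numbered 4 and 5.

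Named were all members, Smad4, the 3 called genes with the smallest p of each list and comparison, and the 2 genes most like a called member. Some genes that this rule selected are not reported here. The members and lists were chosen with earlier results of these data known. Deviations of same-numbered mutants of the 2 stages had correlations of 0.269 to 0.611 in 3 pairs, with a mean of 0.484. Those of the 13 pairs of mutants with different numbers ranged from -0.587 to 0.383, with a mean of -0.111. The ranges overlapped, so that these correlations do not establish a pairing by number. The replicate block was read as a pairing in the stage comparison of mutants on that uncertain ground. The lowest chi-square per degree of freedom between replicates was 12.2, and no library was counted as a copy of another. Exon lengths and positions came from the NCBIM37 annotation, and promoter windows from RefSeq (GRCm38.p6). Of 23284 symbols, 23166 were placed on a chromosome. The NCBIM37 annotation placed 21897 of them, and RefSeq placed 1131 by symbol and 138 by synonym. Figures were drawn with matplotlib 3.10.9 in Python 3.11.15.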

Additional observations from a re-analysis of the deposited data

Results flagged for a closer look

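The effect of the genotype on Bmf differed between stages by 0.657 on the log2 scale (edgeR quasi-likelihood test of the interaction, adjusted p = 0.0683). Bmf was lower in 4 of 4 mutants at E10.0 and higher in 4 of 4 mutants at E10.5 than every wild type of the stage. Of all genes, 17.8% and 13% did not overlap between genotypes at these stages. At E10.5 the lowest mutant had 57.6 CPM and the highest wild type 57.2 CPM, and Bmf was not called between genotypes. The interaction call was kept by DESeq2 (adjusted p = 9.60e-04). It was lost with replicates 1 to 3 only (adjusted p = 0.446), with a replicate block (0.352) and in 11 of the 14 fits that left out 1 embryo (up to 0.225). In those 11 fits the difference lay between 0.54 and 0.69.

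In 4 of 64 groups of 4 mutants examined, 1 embryo lay far from the other 3, and chance alone gives about 1 in 20. Ep300 reached 163 CPM and Birc6 227 CPM in mutant replicate 1 at E10.5, Dffa 31.2 CPM in mutant replicate 2 at E10.5, and Cycs 250 CPM in mutant replicate 5 at E10.5. No member of the 10 was among them.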

How the results depend on the processing

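Members called moved between settings as follows. Between genotypes at E10.0 it was 0, and 2 with replicates 1 to 3 only (Bax, Bbc3) and with a replicate block (Bbc3, Bcl2l1). It was 0 to 1 over the fits without 1 embryo. At E10.5 it was 1, and 0 with the quasi-likelihood test, DESeq2 and the block, and 0 to 1 without 1 embryo. With stage in wild type it was 1, and 2 (Bax, Pmaip1) with only the groups compared, with replicates 1 to 3 only and with the block, and 1 to 2 without 1 embryo. In mutants it was 1, and 2 with replicates 1 to 3 only, and 1 to 2 without 1 embryo. The call of Pmaip1 with stage was kept under all of these.

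Log2 fold changes of some members turned. With the replicate block they were -0.22 for Pmaip1 at E10.0, -0.35 for Bbc3 and 0.083 for Mcl1 at E10.5, -6.26e-04 for Bcl2 with stage in mutants, and -0.13 for Bax and 0.13 for Bcl2 in the interaction. With replicates 1 to 3 only they were 0.021 for Bcl2l11 at E10.0, -0.13 for Bbc3 and 0.079 for Mcl1 at E10.5, and 0.034 for Bcl2 in the interaction. Without 1 embryo they ranged from -0.00483 to 0.075 for Ccng1 and from -0.039 to 0.015 for Bcl2l11 at E10.0. At E10.5 they ranged from -0.029 to 0.39 for Bbc3, from -0.14 to 0.065 for Bax, from -0.025 to 0.17 for Bcl2 and from -0.065 to 0.021 for Mcl1. With stage in mutants they ranged from -0.074 to 0.34 for Bbc3, from -0.062 to 0.11 for Bcl2 and from -0.082 to 0.018 for Mcl1. In the interaction they ranged from -0.059 to 0.049 for Trp53 and from -0.00438 to 0.20 for Bax. The cause was not tested.

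Between genotypes and with stage in wild type, same-numbered embryos did not deviate together (mean correlations -0.00702, -0.156 and -0.157 over 2, 2 and 3 pairs). The labels do not say what the numbers mean, and so few pairs cannot decide whether same-numbered embryos share an origin. With the quasi-likelihood test, the block moved the genes called from 601 to 1990 at E10.0, from 341 to 378 at E10.5, from 1111 to 1899 in wild type and from 23 to 0 in the interaction. Embryos whose number the other group lacks, among them mutants 4 and 5 between genotypes, do not enter the blocked contrast. DESeq2 called 87 genes and replicates 1 to 3 only 6 in the interaction, and replicates 1 to 3 only 2018 at E10.0. Of the 32 calls of list genes that the naming rule selected, 11 were kept under every alternative and none turned. Embryos of a group are separate animals, and 3 or 4 of them limit what could be detected for members under 5 CPM such as Bbc3.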
